A study of Arabidopsis thaliana with 28 samples.

Results

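ABA-treated Arabidopsis thaliana seedlings were set against mock-treated seedlings after 8 h, across 18310 genes in 4 of the 28 libraries of a time course. All seedlings were Col-0, a laboratory accession with no mutation or transgene named in the labels, had germinated in darkness on a nylon mesh over liquid medium, and were 3 days old at the start. The ABA group received 10 µM abscisic acid for 8 h (2 libraries) and the mock group received ethanol, the solvent, for the same 8 h (2 libraries). Poly(A) RNA of whole seedlings was sequenced, so root, hypocotyl and cotyledon were read together, and fewer cells of a type cannot be told apart from less RNA per cell. The ABA libraries held 19.89 and 21.57 M reads (M for mega) in the listed genes, and the mock libraries held 17.92 and 20.44 M. Nothing in the labels says that the 2 libraries of a group came from separate cultures. Errors and p-values thus describe the spread between libraries, which may be technical. That spread was estimated over all 28 libraries together, so it comes mostly from times other than 8 h.

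Abscisic acid is the plant hormone of drought and seed dormancy. In the textbook pathway, ABA binds soluble receptors of the PYR/PYL family, the bound receptors inhibit clade A protein phosphatases (PP2Cs), and the SnRK2 kinases thereby released activate bZIP transcription factors of the ABF and ABI5 group. These factors bind promoter elements with an ACGTG core, called ABA-responsive elements. In seedlings, ABA is known to hold back growth and to induce proteins that protect cells against water loss.

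The promoters of 6 genes are shown because these genes mark the main results described further on: the largest increase, 3 abundant induced stress genes, a lipid-barrier gene whose ABA effect differed between 8 h and 4 h, and the largest decrease. Each sequence runs 5′ to 3′ on the strand of its gene, from 250 bases before to 50 bases after the annotated start, read from the RefSeq genome of build TAIR10.1. Capitals mark each ACGTG or its reverse complement CACGT, and overlapping matches were counted separately. LTP4 lies at chr5:23925908-23926207, minus strand, AT3G02480 at chr3:511970-512269, plus strand, RD29B at chr5:21236771-21237070, plus strand, RAB18 at chr5:26519398-26519697, minus strand, GPAT5 at chr3:3595444-3595743, plus strand, and AT1G29090 at chr1:10164403-10164702, minus strand.
LTP4: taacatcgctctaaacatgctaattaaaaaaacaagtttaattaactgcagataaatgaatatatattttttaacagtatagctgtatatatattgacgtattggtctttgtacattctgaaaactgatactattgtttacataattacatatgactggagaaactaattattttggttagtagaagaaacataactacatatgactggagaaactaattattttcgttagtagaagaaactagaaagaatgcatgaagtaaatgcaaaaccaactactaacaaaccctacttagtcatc
AT3G02480: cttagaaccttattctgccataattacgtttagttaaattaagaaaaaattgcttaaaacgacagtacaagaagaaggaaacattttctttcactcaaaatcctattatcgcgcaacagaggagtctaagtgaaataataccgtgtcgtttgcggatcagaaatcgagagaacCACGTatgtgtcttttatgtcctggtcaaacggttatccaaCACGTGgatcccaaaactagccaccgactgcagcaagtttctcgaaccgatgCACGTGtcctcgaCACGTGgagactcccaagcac
RD29B: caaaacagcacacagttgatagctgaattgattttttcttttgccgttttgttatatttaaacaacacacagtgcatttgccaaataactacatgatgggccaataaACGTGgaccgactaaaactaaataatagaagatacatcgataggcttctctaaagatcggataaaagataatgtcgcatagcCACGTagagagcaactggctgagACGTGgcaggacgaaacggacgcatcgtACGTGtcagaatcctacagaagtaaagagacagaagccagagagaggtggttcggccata
RAB18: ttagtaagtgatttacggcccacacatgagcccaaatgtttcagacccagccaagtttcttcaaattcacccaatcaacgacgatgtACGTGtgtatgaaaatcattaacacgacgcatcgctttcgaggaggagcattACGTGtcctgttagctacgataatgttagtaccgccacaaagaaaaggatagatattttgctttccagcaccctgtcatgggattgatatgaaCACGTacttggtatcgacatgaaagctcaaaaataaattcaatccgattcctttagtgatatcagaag
GPAT5: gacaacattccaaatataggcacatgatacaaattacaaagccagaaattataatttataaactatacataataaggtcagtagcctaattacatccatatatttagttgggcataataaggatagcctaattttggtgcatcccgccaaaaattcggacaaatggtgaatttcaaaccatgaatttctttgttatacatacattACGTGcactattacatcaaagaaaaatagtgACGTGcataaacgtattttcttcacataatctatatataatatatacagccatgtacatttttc
AT1G29090: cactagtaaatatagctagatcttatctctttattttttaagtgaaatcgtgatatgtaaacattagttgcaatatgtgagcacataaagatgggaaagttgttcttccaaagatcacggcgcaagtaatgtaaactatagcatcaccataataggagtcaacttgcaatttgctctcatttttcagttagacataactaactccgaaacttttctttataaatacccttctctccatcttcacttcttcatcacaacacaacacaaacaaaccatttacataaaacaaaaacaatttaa

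AT3G02480 held 7 matches, RD29B 4, RAB18 3 and GPAT5 2, while the windows of LTP4 and AT1G29090 held none. A match describes these letters only, and its absence from a window says nothing about the factors that act on the gene.

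ABA changed 2104 of 18310 genes (11.5%), and 1450 of them were higher (7.92%) and 654 lower (3.57%), at an adjusted p under 0.05 in limma on log2(RPKM + 1), where RPKM is a read count divided by the length of the gene and the size of the library. On that log2 scale the median increase was 1.02 and the median decrease was 0.883 in size. An increase of at least 1 was reached by 741 called genes, of at least 2 by 262 and of at least 3 by 116. The same sizes of decrease were reached by 271, 47 and 15 genes. The genes that rose had a median of 17.39 RPKM with ABA, against 6.35 RPKM in mock, and the genes that fell had 2.19 RPKM with ABA, against 6.28 RPKM in mock. All called genes had both ABA libraries beyond both mock libraries, an order that 47.6% of all genes showed. Fitting same-numbered ABA and mock libraries as pairs (a replicate block) gave 4578 genes, 2846 higher and 1732 lower. Of the 2104 calls 2102 were among them. List counts given with the block stand beside these larger totals over all 18310 genes. The 4 libraries of 8 h alone gave 1416 genes, and these held 1289 of the 2104 calls. Without ABA replicate 2 the count was 1391, and the count of lower genes was 402, against 369 without mock replicate 1 and 421 without mock replicate 2. After quantile normalization 1298 of 2127 calls were increases, 61.0%, against 68.9% as deposited. An FDR under 0.05 at 8 h was given to 2090 genes in the authors' deposited table, and 1908 of these were called here, none in the opposite direction.

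**Figure D1:**
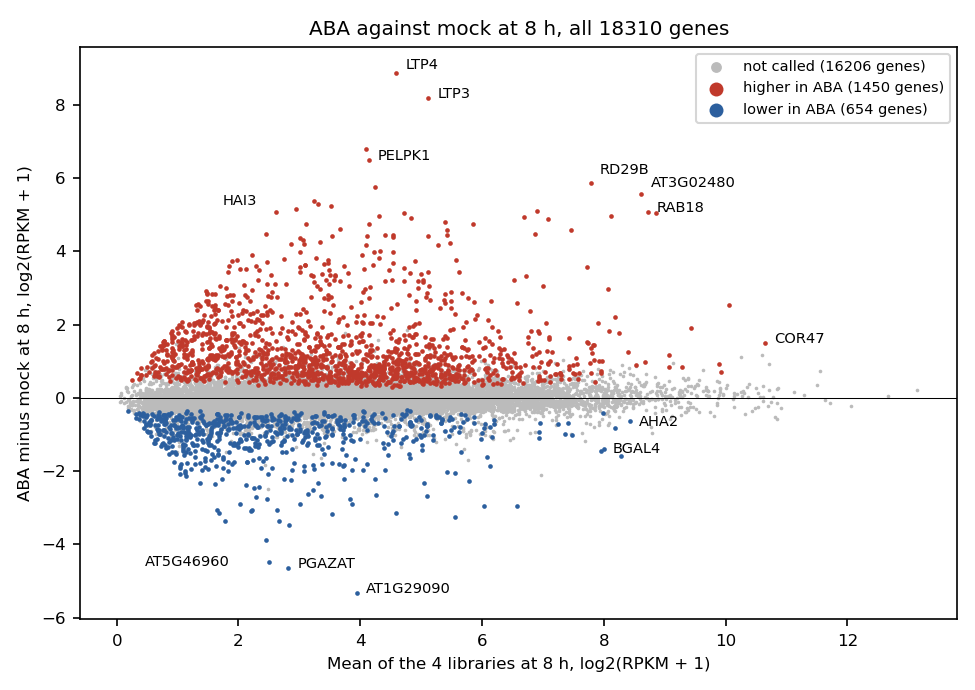
Difference between ABA and mock at 8 h (vertical axis, log2(RPKM + 1)) against the mean of the 4 libraries (horizontal axis, log2(RPKM + 1)), 1 point per gene. The 1450 genes called higher reach 8.87 (LTP4) and the 654 called lower reach -5.33 (AT1G29090).

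Promoters with the ACGTG core were more frequent among genes that rose. The core, on either strand, occurred in 727 of 1442 promoters of higher genes (50.4%), in 165 of 647 promoters of lower genes (25.5%) and in 4213 of 15967 promoters of genes not called (26.4%), beside 28.3% of all 18056 promoters. Among higher genes with a difference of at least 1 the share was 55.1%, and with a difference of at least 3 it was 73.9%. The longer form ACGTGNC, with its reverse complement GNCACGT, occurred in 29.9% of higher, 6.0% of lower and 10.9% of uncalled genes, beside 12.2% of all promoters. Lists of genes differed in this: 23 of 28 LEA and dehydrin promoters (82.1%) held the core, but 3 of 12 promoters of suberin genes did. These shares are descriptions and were not tested, and base composition was not matched between the classes.

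**Figure D2:**
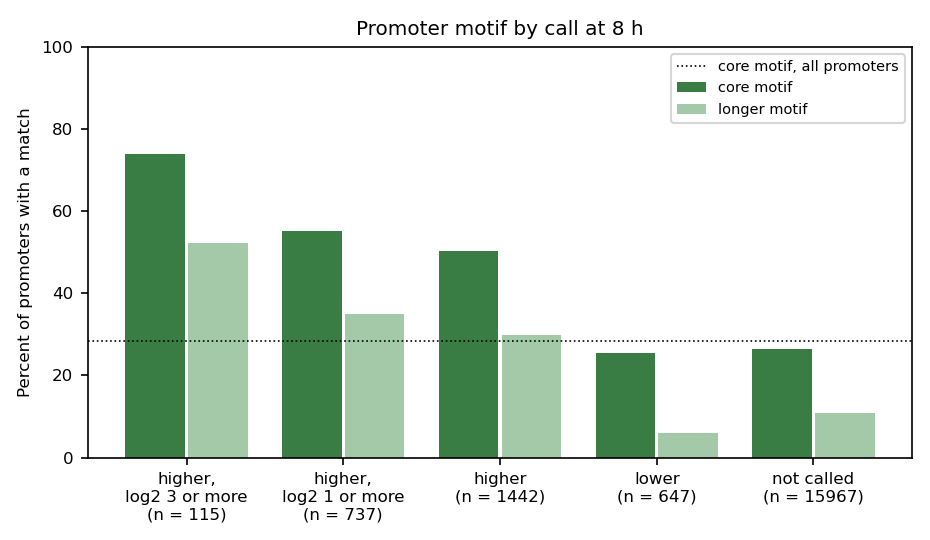
Percent of promoters with the core motif (dark bars) and with its longer form (light bars) by call at 8 h, with the number of promoters under each class and a dotted line for the core in all promoters. The core share was 73.9% for increases of at least 3, 55.1% for those of at least 1, 50.4% for all higher genes, 25.5% for lower genes and 26.4% for uncalled genes.

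The 15 largest increases were led by a pair of lipid transfer protein genes. LTP4 (AT5G59310), for a secreted lipid transfer protein, had 469 and 580 RPKM in ABA libraries, against 0.162 and 0.0748 RPKM in mock libraries. Its tandem neighbour LTP3 (AT5G59320) had 566 and 613 RPKM with ABA, against 0.751 and 1.38 RPKM in mock, a difference of 8.17 ± 0.34 (SE, n = 2 per group, limma adjusted p = 2.44e-11). Both pairs of groups were far apart, and reads that match both genes cannot be assigned with certainty, since their sequences are alike. BGLU24 (AT5G28510), for a family 1 beta-glucosidase, had 39.3 and 30.5 RPKM with ABA, against 0.0319 and 0.0882 RPKM in mock, which is 2272 reads against 4. PELPK2 (AT5G09520), for a proline-rich cell wall protein, had 66.6 and 54.1 RPKM with ABA, against 0.362 and 0.584 RPKM in mock. ENODL1 (AT5G53870), an early nodulin-like gene, had 51.5 and 72.9 RPKM with ABA, against 0.726 and 0.458 RPKM in mock. The remaining members of the 15 largest increases were AT2G22510 (6.81), PELPK1 (6.49), RD29B (5.87), AT2G37870 (5.77), AT3G02480 (5.56), HSFA6A (5.23), HAI3 (5.16), AT3G17520 (5.11), RAB18 (5.08) and LEA7 (5.04). All 15 calls held without each of the 4 libraries in turn and with the pairing block.

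Called genes were also ranked by their difference in RPKM rather than on the log scale, and by this measure AT3G02480 rose most. Only called genes entered this ranking, so the calls of the 8 genes named from it are no further result. AT3G02480, for a small LEA-type protein, had 2661 and 2737 RPKM with ABA, against 79.1 and 39.8 RPKM in mock. LEA7 (AT1G52690), for a late embryogenesis abundant protein, had 2444 and 2866 RPKM with ABA, against 95.8 and 66.0 RPKM in mock. RAB18 (AT5G66400), a dehydrin, had 1873 and 3224 RPKM with ABA, against 74.1 and 69.0 RPKM in mock. COR413-PM1 (AT2G15970), for a plasma membrane protein of cold acclimation, had 2483 and 2613 RPKM with ABA, against 486 and 399 RPKM in mock, a difference of 2.53 ± 0.23 (limma adjusted p = 3.81e-07). COR47, RD29B, KIN1 and KIN2 completed the 8 largest increases in RPKM among called genes. The call of COR47 (2785 and 2631 RPKM with ABA, against 1060 and 851 RPKM in mock) was lost without mock replicate 2 (adjusted p = 0.0633).

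**Figure D3:**
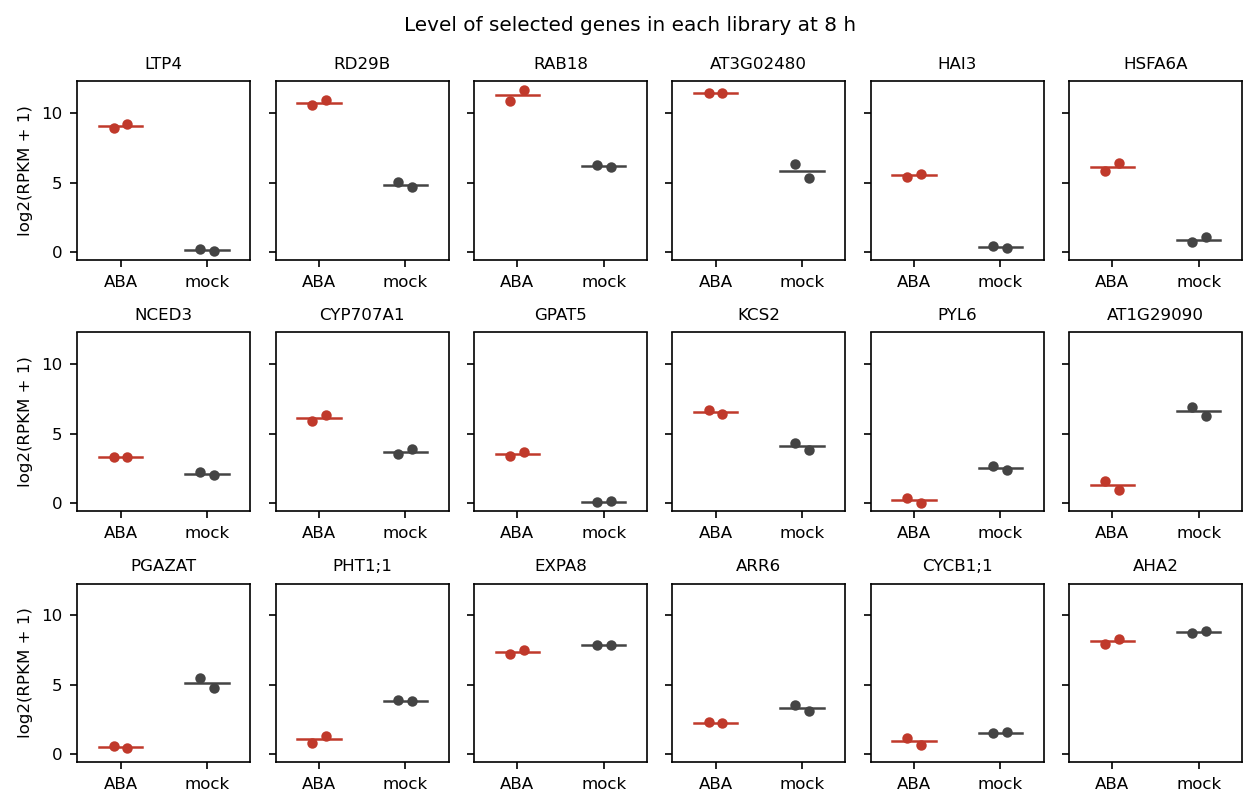
Level of selected genes in each library at 8 h (vertical axis, log2(RPKM + 1)), ABA left and mock right, 1 point per library with a line at the mean of 2. The groups lie apart by 8.87 for LTP4 and by -5.33 for AT1G29090, and by -0.50 for EXPA8, which was not called.

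Genes of ABA perception and signalling changed in opposite directions along the pathway. Of 8 measured receptor genes 3 were lower and none was higher, and the block gave 6 lower. PYL4 had 14.4 and 13.3 RPKM with ABA, against 78.4 and 68.4 RPKM in mock, a difference of -2.32 ± 0.34 (limma adjusted p = 9.5e-05). PYL6 had 7 reads in the ABA libraries, against 210 in mock, and PYL5 was at -1.56 ± 0.28. With the block PYR1 (-0.89), PYL1 (-0.65) and PYL8 (-0.58) were lower too, at adjusted p = 0.000135, 0.00591 and 0.0199. All 9 clade A PP2C genes, the phosphatases that the receptors inhibit, were higher, with a median of 2.46, beside 0.006 over all genes. HAI3 had 41.9 and 48.5 RPKM with ABA, against 0.358 and 0.220 RPKM in mock (5.16 ± 0.19, limma adjusted p = 5.86e-12). PP2CA had 139 and 188 RPKM with ABA, against 16.3 and 11.8 RPKM in mock, and HAB2 differed least, at 0.93 ± 0.11.

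Of 10 SnRK2 kinase genes 4 were higher, SNRK2.9 (1.61 ± 0.24), SNRK2.6 (0.74 ± 0.16), SNRK2.10 (0.67 ± 0.11) and SNRK2.1 (0.47 ± 0.11). SNRK2.6, the kinase known from guard cells as OST1, had 51.2 and 59.4 RPKM with ABA, against 30.8 and 34.3 RPKM in mock, and its call was lost without ABA replicate 2 (adjusted p = 0.0667) or mock replicate 1 (adjusted p = 0.055). That of SNRK2.1 was lost without either replicate 2 (adjusted p = 0.0714 for ABA and 0.11 for mock). SNRK2.5 (-0.62) was lower only with the block (adjusted p = 0.00132). Among bZIP factors that act after the kinases, 6 of 8 were higher. ABI5, which arrests growth after germination, had 31.6 and 33.6 RPKM with ABA, against 7.26 and 6.68 RPKM in mock (2.08 ± 0.33, limma adjusted p = 0.000187). ABF2 was at 1.71 ± 0.20, ABF4 at 1.61 ± 0.17, ABF3 at 1.36 ± 0.24 and GBF3 at 1.33 ± 0.23. ABF1 (0.97 ± 0.22) was not called without ABA replicate 2 (adjusted p = 0.15) or mock replicate 1 (adjusted p = 0.0893).

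The feedback list, AFP proteins that bind ABI5 and AITR repressors, was higher in all 10 members, with a median of 1.51. AITR6 had 36.8 and 43.2 RPKM with ABA, against 2.56 and 1.504 RPKM in mock (3.78 ± 0.29). AFP1 had 84.1 and 87.9 RPKM with ABA, against 12.0 and 8.17 RPKM in mock (2.99 ± 0.35). The calls of AFP4 (0.97 ± 0.26) and AITR3 (1.31 ± 0.27) were lost without ABA replicate 2, at adjusted p = 0.127 and 0.0751, and that of AFP4 also without mock replicate 2 (adjusted p = 0.138). For ABA itself, 3 of 7 measured synthesis genes were higher, ABA1 (1.39 ± 0.15), NCED3 (1.18 ± 0.21) and AAO3 (1.05 ± 0.23), and the block gave 6. NCED3, the step that limits synthesis under drought, had 8.94 and 8.91 RPKM with ABA, against 3.76 and 3.04 RPKM in mock. Of the ABA 8′-hydroxylases, which break ABA down, CYP707A1 had 57.6 and 80.8 RPKM with ABA, against 10.6 and 13.6 RPKM in mock (2.41 ± 0.28, limma adjusted p = 5.79e-06), and CYP707A2 was at 2.13 ± 0.21. They and the exporter gene ABCG25 (0.86) were the 3 higher of 10 measured genes of ABA breakdown, conjugation and transport, a list with a median of 0.17. The call of ABCG25 was lost without ABA replicate 2 (adjusted p = 0.264), mock replicate 1 (0.0846) or mock replicate 2 (0.101). The block gave 3 higher and added UGT71C5, a glucosyltransferase of ABA, as lower (-0.36, adjusted p = 0.0439).

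Of 26 measured genes in a list of NAC, HD-Zip, MYB, zinc finger and ERF-type transcription factors, 18 were higher and 1 was lower, with a median of 1.41. RAP2.6, an ERF-type factor, had 92.1 and 131 RPKM with ABA, against 2.47 and 2.64 RPKM in mock (4.96 ± 0.19, limma adjusted p = 1.25e-11). HB7, an HD-Zip factor, had 155 and 175 RPKM with ABA, against 8.71 and 7.598 RPKM in mock (4.18 ± 0.28). MYB41, known as an activator of suberin synthesis, had 264 reads in the ABA libraries and 0 in the mock libraries, at least 88.2-fold higher against a floor of 3 reads over the mock group. RD26, a NAC factor, was at 2.82 ± 0.15, and AZF1, a zinc finger repressor, was at -1.14 ± 0.20 with 0.344 and 0.463 RPKM in ABA libraries, against 2.39 and 1.83 RPKM in mock libraries. The call of MYB49 (1.60 ± 0.38) was lost without ABA replicate 2 (adjusted p = 0.0599) or mock replicate 2 (adjusted p = 0.0555). Of 10 NF-YA genes, subunits of a CCAAT-binding factor, 4 were higher, by 0.96 to 1.33, and the call of NF-YA7 was lost without ABA replicate 2 (adjusted p = 0.0947) or mock replicate 1 (adjusted p = 0.106). Of 5 measured seed maturation regulators SOM and MFT were higher, SOM at 2.67 ± 0.17 with 88.4 and 121 RPKM in ABA libraries, against 15.704 and 15.006 RPKM in mock libraries, and the block added FUS3 (0.80, adjusted p = 0.00785) and DOG1 (0.41, adjusted p = 0.031).

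Heat stress genes were among those that rose at 8 h. Of 17 measured members 7 were higher and none lower, and the block gave 11. HSFA6A, a heat stress factor, had 56.4 and 84.9 RPKM with ABA, against 0.663 and 1.11 RPKM in mock (5.23 ± 0.25, limma adjusted p = 1.01e-10), and HSFA6B was at 3.56 ± 0.27. HSP22, for a small heat shock protein of the endomembrane system, had 30.4 and 34.1 RPKM with ABA, against 2.43 and 2.68 RPKM in mock (3.22 ± 0.28). HSP17.4 had 37.6 and 45.2 RPKM with ABA, against 7.35 and 8.52 RPKM in mock (2.24 ± 0.33). At 4 h the effects of HSP22 and HSP17.4 were 1.51 and 1.11, but neither difference between 8 h and 4 h passed the test; with the block that of HSP22 did (adjusted p = 0.0222). HSP17.6C had 5.60 RPKM in ABA replicate 1 and 15.9 RPKM in ABA replicate 2, against 2.605 and 2.54 RPKM in mock, and its call was lost without ABA replicate 2 (adjusted p = 0.416), mock replicate 1 (0.113) or mock replicate 2 (0.122). HSP70-4 (1.096 ± 0.25) lost its call without ABA replicate 2 (adjusted p = 0.0511).

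Of 28 measured LEA and dehydrin genes, whose hydrophilic products accumulate in drying seeds, 23 were higher and none was lower, with a median of 3.21. LTI30, a dehydrin, had 847 and 880 RPKM with ABA, against 47.6 and 25.5 RPKM in mock (4.59 ± 0.40, limma adjusted p = 1.76e-07). EM1, an abundant protein of the mature embryo, had 166 and 135 RPKM with ABA, against 6.31 and 1.89 RPKM in mock (5.04 ± 0.74). Of the 23 calls 15 held without each library of 8 h in turn. Of 16 measured seed storage and oil body genes 7 were higher, and all 7 encode oil body proteins or the peroxiredoxin PER1. OLEO2, an oleosin of the oil body surface, had 219 and 168 RPKM with ABA, against 13.2 and 6.32 RPKM in mock (4.24 ± 0.65, limma adjusted p = 0.000157). The storage protein genes did not pass: the cruciferin CRA1 had 169 and 106 RPKM with ABA, against 131 and 66.1 RPKM in mock, and the 2S albumin SESA1 had 7.001 and 8.80 RPKM with ABA, against 5.38 and 4.09 RPKM in mock. The calls of OLEO1, CLO1 and PER1 were lost without ABA replicate 1, at adjusted p = 0.185, 0.0863 and 0.0698, and those of OLEO1 and PER1 also without mock replicate 2 (adjusted p = 0.117 and 0.0944), that of OLEO1 also without mock replicate 1 (adjusted p = 0.0925).

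In the list of RD29, KIN, RD22 and HVA22 stress genes 8 of 10 were higher, and these calls held without each library. KIN1 had 1664 and 1475 RPKM with ABA, against 68.0 and 34.9 RPKM in mock (4.98 ± 0.49), and RD22 had 663 and 802 RPKM with ABA, against 63.5 and 57.6 RPKM in mock (3.57 ± 0.19). Among genes of compatible solutes, 6 of 13 were higher, and the block gave 8 higher and 3 lower. The 13 values lay between -1.07 and 3.04, with a median of 0.53. P5CS1, the first enzyme of proline synthesis, had 123 and 160 RPKM with ABA, against 19.6 and 20.9 RPKM in mock (2.74 ± 0.22, limma adjusted p = 7.48e-08). GOLS2, a galactinol synthase of the raffinose pathway, had 27.6 and 26.8 RPKM with ABA, against 2.53 and 2.33 RPKM in mock. GOLS4 had 114 reads with ABA and 0 in mock, at least 38.1-fold higher against the same floor. The call of GOLS1 was lost without ABA replicate 2 (effect 0.58), mock replicate 1 (0.92) or mock replicate 2 (1.12). That of RS4 was lost without ABA replicate 1 (effect 1.34) or mock replicate 2 (1.39). In the fermentation and hypoxia list ADH1, alcohol dehydrogenase, had 68.0 and 79.9 RPKM with ABA, against 3.302 and 4.11 RPKM in mock (3.99 ± 0.22), and SUS1, a sucrose synthase, was at 2.97 ± 0.28. HRE1, a hypoxia-response factor, was at -0.65 ± 0.14, so the list of 10 held 4 higher and 1 lower gene. The call of SUS4 (0.54 ± 0.15) was lost without ABA replicate 2 (adjusted p = 0.285) or mock replicate 1 (adjusted p = 0.196).

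Most listed genes of barrier lipids rose as well. Of 12 suberin genes 9 were higher, with a median of 1.401. Of 9 measured cuticular wax genes 7 were higher, with a median of 0.681. With the block 10 suberin genes were higher and 1 was lower, and 9 wax genes were higher. ABCG6, a transporter of suberin precursors, had 23.4 and 26.4 RPKM with ABA, against 0.122 and 0.188 RPKM in mock (4.48 ± 0.22, limma adjusted p = 1.19e-10). GPAT5, an acyltransferase of suberin synthesis, had 9.64 and 11.8 RPKM with ABA, against 0.0530 and 0.0977 RPKM in mock, which is 841 reads against 6, a ratio of 141 (exact 95% counting interval 64.3 to 384). ASFT, which adds ferulate to suberin, was at 3.20 ± 0.23. The calls of FAR4 and ABCG20 were lost without ABA replicate 1 (adjusted p = 0.0659 and 0.0752) or mock replicate 2 (adjusted p = 0.0521 and 0.0523). WSD1, a wax ester synthase, had 43.5 and 31.7 RPKM with ABA, against 3.096 and 2.51 RPKM in mock (3.33 ± 0.25), and CER1, of alkane synthesis, had 123 and 139 RPKM with ABA, against 24.6 and 28.4 RPKM in mock (2.26 ± 0.47). The calls of CER6 and ABCG11 were lost without mock replicate 2 (adjusted p = 0.0837 and 0.112), and that of CER2 with any 1 library left out, at adjusted p = 0.0551 to 0.149. None of the 7 Casparian strip genes passed, and CASP1 had 168 and 153 RPKM with ABA, against 197 and 121 RPKM in mock. With the block CASP5 was higher (0.65, adjusted p = 0.0097). In the lipid transfer list of 10, LTP1 (1.16 ± 0.19) rose with LTP3 and LTP4, and AT4G12545 and EARLI1 were lower. The call of EARLI1 (-1.04) was lost with each of the 4 libraries left out in turn, at adjusted p = 0.0641 to 0.115, and the block gave 4 higher and 4 lower in this list.

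**Figure D4:**
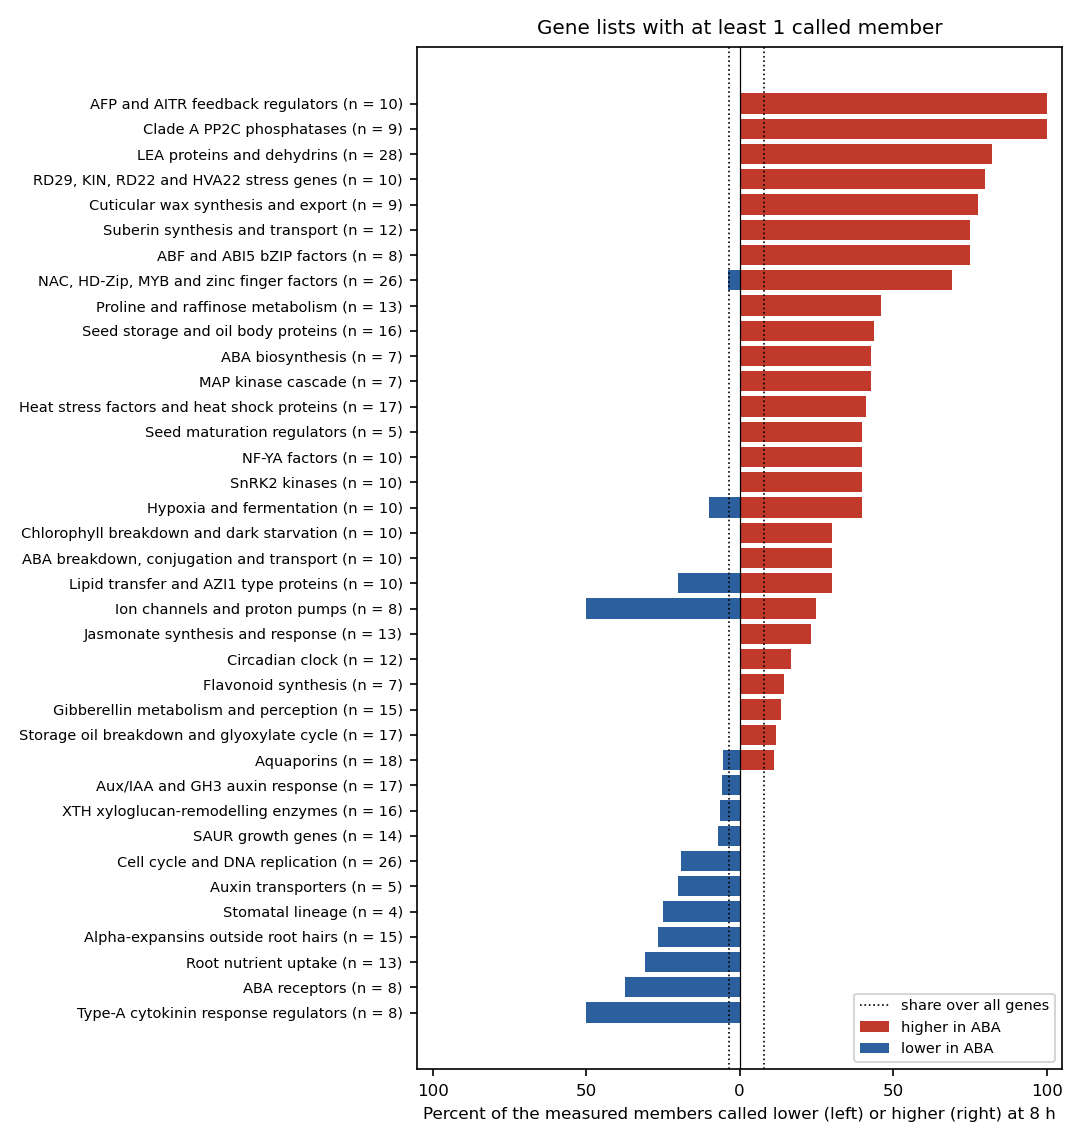
Percent of the measured members of each gene list called higher (right, red) or lower (left, blue) at 8 h, for the lists with at least 1 called member, with dotted lines at the shares over all genes (7.92% higher, 3.57% lower). All 9 PP2C genes and all 10 AFP and AITR genes lie on the right, and 4 of 8 type-A response regulators and 4 of 8 channels and pumps lie on the left.

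The 15 largest decreases encode proteins of varied kinds. AT1G29090, for a papain-type cysteine protease, had 1.98 and 0.970 RPKM with ABA, against 121 and 76.7 RPKM in mock. PGAZAT (AT2G41850), a polygalacturonase of cell separation, had 0.477 and 0.350 RPKM with ABA, against 44.3 and 26.3 RPKM in mock. AT5G46960, annotated as an inhibitor of invertase or pectin methylesterase, had 5 reads with ABA, against 656 in mock, a ratio in mock over ABA of 131 (exact 95% counting interval 55.8 to 404). UMAMIT36 (AT1G70260), an amino acid transporter-type gene, had 4 reads with ABA, against 600 in mock. FLS5 (AT5G63600), of the flavonol synthase family, had 1.52 and 4.996 RPKM with ABA, against 30.5 and 37.5 RPKM in mock (-3.16 ± 0.29, limma adjusted p = 3.78e-07). The 15 largest decreases also held AT1G26250 (-3.87, extensin-like), AT1G45015 (-3.48) and AT5G23840 (-3.05, both with an MD-2-related lipid recognition domain), AT3G02620 (-3.35, acyl-ACP desaturase), AT4G12545 (-3.26), GSTF14 (-3.15, glutathione transferase), AT5G64120 (-3.13, class III peroxidase), AT2G28780 (-3.1), AT1G30760 (-3.06, berberine-bridge type) and AT3G01260 (-3.06, galactose mutarotase-like). The call of AT4G12545 was lost without ABA replicate 2 (adjusted p = 0.0542), and the other 14 held without each library. Among called genes, the largest falls in RPKM were those of the class III peroxidase AT2G37130 and of AT5G26280, for a TRAF-like protein. AT2G37130 had 153 and 208 RPKM in ABA libraries, against 591 and 495 RPKM in mock libraries. AT5G26280 had 161 and 137 RPKM in ABA libraries, against 424 and 401 RPKM in mock libraries. BGAL4 (AT5G56870), of the beta-galactosidase family, had 106 and 229 RPKM with ABA, against 356 and 485 RPKM in mock, and its call was lost without ABA replicate 1 (adjusted p = 0.173) or mock replicate 2 (adjusted p = 0.112). CP29 (AT3G53460), a chloroplast RNA-binding protein, had 216 and 222 RPKM with ABA, against 375 and 399 RPKM in mock, and its call was lost with each of the 4 libraries left out in turn, at adjusted p = 0.056 to 0.095. TPX2 (AT1G65970), a thioredoxin-dependent peroxidase, had 24.4 and 45.3 RPKM with ABA, against 235 and 291 RPKM in mock, and the peroxidase AT5G64100 had 17.9 and 28.3 RPKM with ABA, against 199 and 164 RPKM in mock. The call of AT2G37130 was lost without ABA replicate 1 (adjusted p = 0.0899) or mock replicate 1 (adjusted p = 0.0846).

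Of 13 measured nutrient uptake genes of the root 4 were lower and none was higher, and the block gave 6 lower and 1 higher. PHT1;1, a phosphate transporter, had 0.753 and 1.53 RPKM with ABA, against 13.6 and 13.2 RPKM in mock (-2.77 ± 0.20, limma adjusted p = 2.56e-08). AMT1;3, an ammonium transporter, had 0.368 and 0.720 RPKM with ABA, against 6.31 and 6.003 RPKM in mock (-2.22 ± 0.16). FIT, the iron-uptake regulator, was at -1.16 ± 0.23. AMT1;1 (-0.63 ± 0.16) was not called without ABA replicate 1 (adjusted p = 0.0785) or mock replicate 1 (adjusted p = 0.114). The nitrate transporter gene NPF6.3 had 64.4 and 81.1 RPKM with ABA, against 78.6 and 61.3 RPKM in mock, and did not pass. Of 8 channel and pump genes, the outward potassium channel GORK (1.43 ± 0.15) and the anion channel ALMT12 (1.41 ± 0.19) were higher, and SLAH1, SKOR, SLAH3 and AHA2 were lower. SKOR, which loads potassium into the xylem, had 0.632 and 0.244 RPKM with ABA, against 4.73 and 3.87 RPKM in mock (-1.89 ± 0.16), and SLAH1 was at -2.34 ± 0.26. AHA2, the main plasma membrane proton pump of roots, had 244 and 313 RPKM with ABA, against 410 and 445 RPKM in mock, and its call was lost without ABA replicate 1 (adjusted p = 0.154) or mock replicate 2 (adjusted p = 0.106). That of SLAH3 (-0.63) was lost with each of the 4 libraries left out in turn, at adjusted p = 0.0925 to 0.25.

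Type-A response regulators, the immediate targets and inhibitors of cytokinin signalling, were lower in 4 of 8 members, with a median of -0.89. ARR5 had 8.43 and 9.18 RPKM with ABA, against 23.1 and 19.3 RPKM in mock (-1.18 ± 0.24, limma adjusted p = 0.00258), and ARR7 was at -1.55 ± 0.29. The calls of ARR6 (-1.05) and ARR4 (-0.73) were lost without ABA replicate 2 (adjusted p = 0.0562 and 0.198) or mock replicate 1 (adjusted p = 0.12 and 0.244), and that of ARR4 also without ABA replicate 1 (0.105) or mock replicate 2 (0.0835). The block gave 6 lower and 1 higher. Of 15 alpha-expansins, which loosen walls, 4 were lower and the block gave 8. EXPA1 had 19.4 and 20.3 RPKM with ABA, against 48.8 and 50.04 RPKM in mock (-1.27 ± 0.27), and its call held without each library. Those of EXPA2 and EXPA10 were lost without ABA replicate 2 (adjusted p = 0.383 and 0.483) or either mock library, and that of EXPA9 without ABA replicate 1 (0.164) or mock replicate 2 (0.162). Of 26 cell cycle and replication genes 5 were lower, and the block gave 18 lower and none higher. The 26 had a median of -0.496, beside 0.006 over all genes. CDKB2;2, a mitotic kinase, had 5.36 and 3.89 RPKM with ABA, against 7.75 and 7.14 RPKM in mock (-0.60 ± 0.14, limma adjusted p = 0.00676), but it was not called without ABA replicate 2 (adjusted p = 0.156) or mock replicate 1 (adjusted p = 0.07), and none of the other 4 calls held without each library. Of 14 SAUR growth genes 1 was lower, beside 3.57% of all genes, and the block gave 9. All 14 SAUR values lay between -0.92 and -0.05. The single call, SAUR15, was lost with each of the 4 libraries left out in turn, at adjusted p = 0.06 to 0.158. In the auxin lists GH3.3 (-1.07) and the importer LAX3 (-0.79) were the calls, 1 of 17 and 1 of 5, beside that same 3.57%. That of GH3.3 was lost without ABA replicate 1 (adjusted p = 0.174), mock replicate 1 (0.0745) or mock replicate 2 (0.0843), and that of LAX3 without ABA replicate 2 (adjusted p = 0.0546). With the block 5 of 17 Aux/IAA and GH3 genes and 2 of 5 auxin transporter genes were lower. None of 9 brassinosteroid genes passed, and with the block BES1 was higher (0.45, adjusted p = 0.0082) and BAS1 lower (-0.38, adjusted p = 0.0148).

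Markers of tissues and of light give the background of these whole seedlings. None of the root ground tissue markers SCR and SHR and of the shoot markers ATML1, PDF1 and STM passed, with differences of -0.21 to 0.53, and PDF1 alone was higher with the block (adjusted p = 0.0208). COBL9, a root hair marker, and MUTE, of the stomatal lineage, are not analysed here. In the stomatal list EPF1 was lower (-0.77 ± 0.20; not without ABA replicate 2, adjusted p = 0.132, or mock replicate 2, adjusted p = 0.117), and the block added SPCH (-0.56, adjusted p = 0.0089). Although the labels give darkness, light-harvesting genes were abundant: LHCB1.3 had 9886 and 9573 RPKM with ABA, against 8133 and 8800 RPKM in mock. LHCB1.1 had 1600 RPKM in ABA replicate 1 and 268 RPKM in ABA replicate 2, against 1169 and 330 RPKM in mock replicates 1 and 2, so it followed the replicate number. PORA, the protochlorophyllide reductase of etiolated seedlings, had 702 and 388 RPKM with ABA, against 749 and 695 RPKM in mock. None of 20 light-harvesting and photosystem genes, 8 chlorophyll synthesis genes and 9 photomorphogenesis factors passed, and with the block 2 higher and 1 lower, 2 higher, and 3 higher did. Of 10 genes of chlorophyll breakdown and dark starvation 3 were higher, PAO (1.09 ± 0.17), NYE1 (0.88 ± 0.16) and NYE2 (1.56 ± 0.29), and these calls held without each library. The other 7 were not called, with values down to -0.95 (DIN10), and the block gave 5 higher and 1 lower, DIN10 (adjusted p = 0.0122).

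How far 8 h is a time of its own was asked by testing the difference between its ABA effect and those at 4 h and 12 h. Against 4 h 34 genes (0.186%) differed, and 30 of these had a lower effect at 8 h (0.164%) and 4 a higher one (0.0218%). Against 12 h no gene passed in limma, with 91 at an unadjusted p under 0.05, and voom weights on recovered reads also gave 0. Against the mean of the 4 h and 12 h effects no gene passed either, with 188 at an unadjusted p under 0.05, and voom weights again gave 0. Of the 1450 increases at 8 h 1187 were called higher at 4 h and 1274 at 12 h, which is 81.9% and 87.9% of them, and 72.2% and 83.2% of the increases at 4 h and 12 h. Of the 654 decreases 402 were called lower at 4 h and 491 at 12 h, which is 61.5% and 75.1% of them, and 58.7% and 65.6% of the decreases at those times. The background at 4 h was 12.7% of all genes called, 8.98% higher and 3.74% lower, and at 12 h it was 12.5%, 8.37% and 4.09%. The spread of a gene was estimated over all times together, so these calls are not independent. In total 203 genes were called at 8 h and at neither 4 h nor 12 h, 85 higher and 118 lower, and none of them had an effect at 8 h that differed from that at 4 h by the test. The 34 differences are sensitive to the fit: the block gave 106, a pseudocount of 0.1 gave 7, the libraries of 4 h and 8 h alone gave 3, and voom weights gave 3. Leaving out 1 library gave 13 (ABA at 4 h, replicate 1), 30 (ABA at 4 h, replicate 2), 20 and 14 (mock at 4 h, replicates 1 and 2), 19 and 22 (ABA at 8 h), and 16 and 18 (mock at 8 h).

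The 30 genes with the lower effect at 8 h were all called higher at 4 h. Their median effect was 2.85 at 4 h, 1.4 at 8 h and 1.53 at 12 h. In each of them both ABA libraries of 8 h lay below both ABA libraries of 4 h, by 1.91-fold to 11.7-fold in the mean. The 30 were chosen from these same values for a lower effect at 8 h, so that order is no further evidence. Its share over all genes was not counted. Of the 30 genes 27 were still called higher at 8 h. The clearest was AT1G05450, for a lipid-transfer-type protein, with 2.79 and 2.13 RPKM in ABA libraries at 8 h, against 0.172 and 0.158 RPKM in mock. At 4 h it had 34.9 and 22.5 RPKM with ABA, against 0.0931 and 0.103 RPKM in mock, so the effects were 1.56 and 4.73 and differed by -3.16 ± 0.29 (limma adjusted p = 5.48e-05). Barrier genes recurred: 4 of the 12 suberin genes were among the 30, GPAT5 (3.44 at 8 h and 5.10 at 4 h), CYP86B1 (1.98 and 3.74), FAR4 (0.83 and 2.28) and ABCG20 (0.54 and 1.67). No member of the other lists was. The transporter genes ABCG1, ABCG10, ABCG16 and ABCG23, the wax ester synthase-type gene AT5G12420, the laccase gene LAC5 and the GDSL-type gene AT3G50400 (3.75 and 5.64, -1.89 ± 0.28) had lower effects too, chosen here for their names after the values were seen. scpl5 (AT1G73290), for a serine carboxypeptidase-like protein, was at -0.80 at 8 h and 1.27 at 4 h, a difference of -2.07 ± 0.28. Its call at 8 h was lost without ABA replicate 1 (effect -0.79), ABA replicate 2 (-0.81) or mock replicate 1 (-0.68). At 12 h scpl5 was at -0.42 and not called. AT1G54540 (2.83 at 8 h and 4.70 at 4 h, -1.87 ± 0.33) and AT4G03540 (2.82 and 4.64, -1.82 ± 0.36) were the next by size.

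Of the 4 genes whose effect was higher at 8 h, AT5G09480, for a hydroxyproline-rich wall protein, had 8.86 and 6.12 RPKM with ABA at 8 h, against 0.590 and 0.242 RPKM in mock. Its effect was 2.58 at 8 h and 0.03 at 4 h, a difference of 2.54 ± 0.27 (limma adjusted p = 0.000218), and it was 2.45 at 12 h. AT3G06390 was at 0.38 at 4 h, 2.33 at 8 h and 2.399 at 12 h. CYP708A1 was at 0.50, 1.66 and 2.01 at these times, and AT2G23540, for a GDSL-type lipase, at 0.41, 1.52 and 2.15. The differences between 8 h and 4 h were 1.95 ± 0.29, 1.16 ± 0.23 and 1.11 ± 0.22 in that order of genes. Of 20 alternative fits the difference passed in 19 for AT5G09480, 17 for AT3G06390 and 4 for AT2G23540. For CYP708A1 it passed in 5 of 19. All 4 were called higher at 8 h and at 12 h, and at 4 h CYP708A1 alone of them was called (adjusted p = 0.0481).

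**Figure D5:**
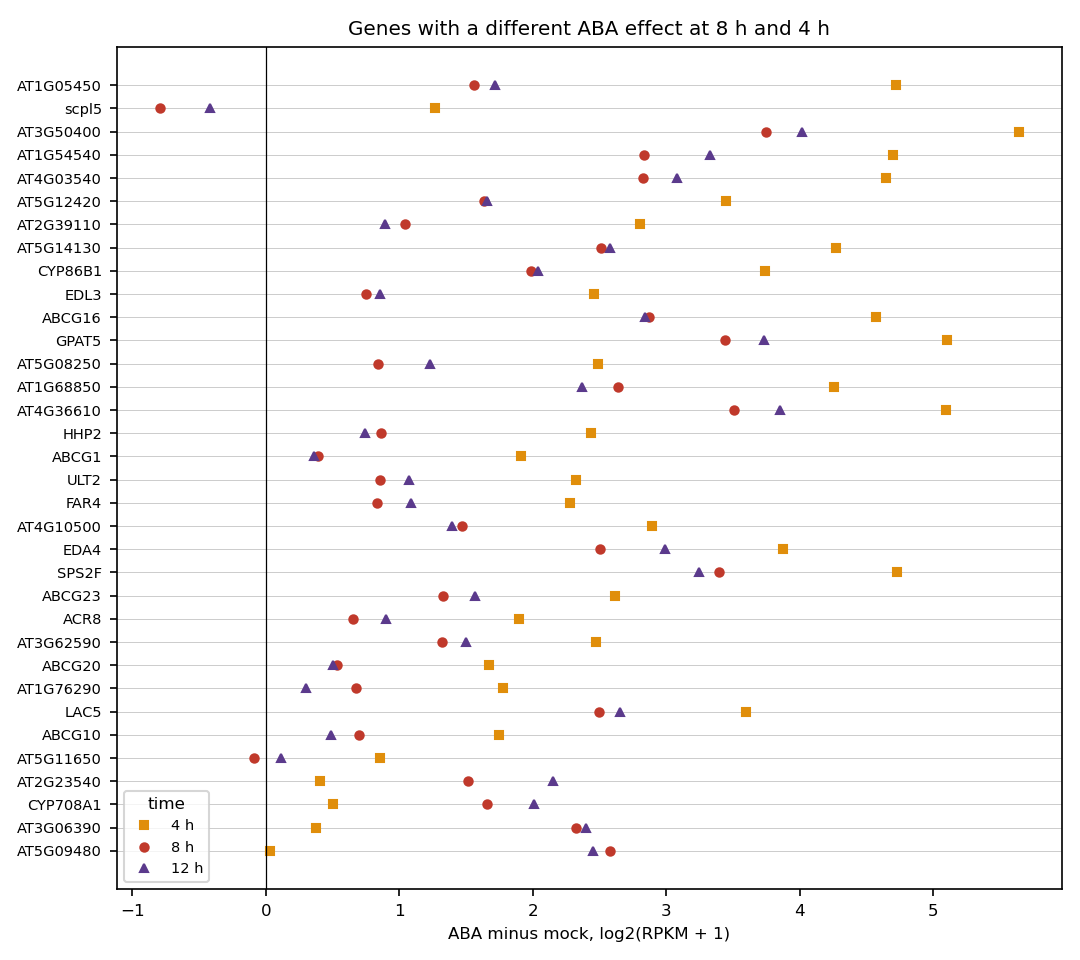
ABA minus mock (horizontal axis, log2(RPKM + 1)) at 4 h (squares), 8 h (circles) and 12 h (triangles) for the 34 genes whose effect differed between 8 h and 4 h. For 30 genes the 8 h point lies to the left of the 4 h point, with medians of 1.4 and 2.85. The 12 h point of these genes, median 1.53, lies near that of 8 h.

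At the threshold, the last called gene was MT2A (AT3G09390), for a metallothionein, with 712 and 990 RPKM in ABA libraries, against 411 and 527 RPKM in mock libraries, and the first uncalled was TPR12 (AT1G78120), with 1.75 and 1.44 RPKM in ABA libraries, against 3.43 and 2.5996 RPKM in mock libraries.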

How the data were processed

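The table deposited by the authors gives RPKM (a read count over gene length and library size) of 18310 genes for each of 28 libraries. Per the file headers it also holds the authors' log2 fold change and FDR, an adjusted p-value, of ABA against mock at each time. Per the submitters' processing notes, HTSeq 0.5.4, edgeR 3.6.2 and build TAIR10 were used; the aligner, and whether counting used the strand, are not given in the sources used here, so genes that overlap a neighbour on the other strand, and near-identical paralogs, have uncertain values. A space that joined the gene identifier to the first value was split, which is the single field of another kind in the table.

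Values were analysed as log2(RPKM + 1) in limma 3.58.1 (R 4.3.3) with 14 group means over all 28 libraries and an intensity trend (residual degrees of freedom 14, 17.7 with the prior), two-sided, with Benjamini-Hochberg adjustment over all genes. The median SE at 8 h was 0.186. Adding 1 RPKM makes the differences of low genes smaller than their ratio. The contrasts were ABA minus mock at 8 h and the difference of that effect from those at 4 h, at 12 h and at their mean. The fit was tested on simulated data before use.

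Reads were recovered from the steps of the RPKM values (100% of 512680 values whole within 0.01 reads): 16.27 to 26.6 M per library. Counting intervals (95%) and floors (3 reads) cover counting error only. Same-numbered ABA and mock libraries deviated together at each of the 7 times (r across genes 0.429 to 0.736), least at 8 h (0.429). The labels do not say that a number marks a shared batch, so the main fit, which gave the main calls, had no pairing. A fit that took the numbers as pairs, with a block per pair (median SE 0.117), stands beside results that it changes. Replicates at 8 h correlated with r = 0.985 (ABA) and 0.981 (mock).

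Genes were named by rule. From called genes came the 15 largest increases and decreases without overlap between groups and the 8 largest RPKM differences each way. Also named were the 5 largest called differences each way between times. Members of 46 lists (522 of 584 loci measured) and the genes on either side of the threshold were named too. Members, lists and rules were chosen with earlier results of these data known. Promoters of 18056 genes came from RefSeq build TAIR10.1, whose nuclear coordinates are those of TAIR10. Other pseudocounts, filters, scalings, library subsets and voom weights were tried. Python 3.11.15, pandas 2.3.3 and Biopython 1.88 were also used.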

Additional observations from a re-analysis of the deposited data

Results flagged for a closer look

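The ABA effect differed between 8 h and 4 h, by a test of the difference itself in limma, for 34 genes. The largest differences (8 h minus 4 h, log2(RPKM + 1)) with the lower effect at 8 h were those of AT1G05450 (-3.16), scpl5 (-2.07), AT3G50400 (-1.89), AT1G54540 (-1.87) and AT4G03540 (-1.82). Those with the higher effect at 8 h were AT5G09480 (2.54), AT3G06390 (1.95), CYP708A1 (1.16) and AT2G23540 (1.11). The genes were called in 4 to 19 of the 20 alternatives (19 for 7 genes that a filter on low values left out), and 14 of them in at least 15. No outlier could be sought with 2 libraries in a group.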

How the results depend on the processing

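Of 224 named genes called at 8 h, 155 stayed called under every alternative tried for them. Fits without a library of 4 h or 12 h were not among these alternatives. A gene that a filter removed was not counted as lost there. None of the 224 genes changed sign, but most alternatives could not have changed one. All called genes had both ABA libraries beyond both mock libraries, and the block leaves each difference as it is. With the replicate block the counts were 4578 called, 2846 higher and 1732 lower, against 2104, 1450 and 654, and 298 list members, against 187. The 4 libraries of 8 h alone gave 1416 called genes, 421 of them lower, and 1289 of the 2104 main calls were among the 1416. Leaving out a library of 8 h gave 1391 to 1818 called, 369 to 562 lower. For the effect at 8 h minus that at 4 h, 34 genes became 106 with the block, 7 with a pseudocount of 0.1, 56 with one of 5, 3 with the 8 libraries of both times alone and 3 with voom weights, and 13 to 30 without 1 library. Against 12 h, 0 genes passed in every alternative tried for that contrast. Against the mean of 4 h and 12 h limma gave 0 (188 at an unadjusted p under 0.05), a pseudocount of 5 gave 2 and leaving out a library 0 to 1. Of 552 list counts recomputed, 449 stayed within 1.5 times, 54 were lower and 49 higher. The promoter shares for higher, lower and uncalled genes, 50.4%, 25.5% and 26.4%, were 42.6%, 23.2% and 22.5% in the 250 bases before the start and 29.9%, 6.0% and 10.9% for ACGTGNC. The cause of these shifts was not tested.

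With 2 libraries in a group, a lone library left after omission is assumed to vary as the other groups do. At the depth of these libraries a gene of few reads, such as MYB41 or GOLS4 in mock, has a lower bound of its fold and not a value.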

Other observations

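Several gene lists had few called members at 8 h, beside 7.92% higher and 3.57% lower over all genes. A call or 2 in a list of this size was not read as a result about the list. Of 7 measured MAP kinase cascade genes 3 were higher. MAPKKK18, a kinase induced by ABA, had 8.95 and 7.73 RPKM with ABA, against 1.69 and 0.667 RPKM in mock (2.14 ± 0.23, SE, n = 2 per group, limma), and its call held without each library, while that of MAPKKK17 (1.78) was lost without mock replicate 2 (adjusted p = 0.0532) and that of MPK7 (0.54) without ABA replicate 2 (adjusted p = 0.105) or mock replicate 1 (0.0706). RGL3, a DELLA repressor of gibberellin responses, had 11.9 and 13.6 RPKM with ABA, against 6.62 and 6.69 RPKM in mock (0.84 ± 0.15), 1 of 2 higher members among 15 gibberellin genes. The other, GID1B (0.36), lost its call with each of the 4 libraries left out in turn, at adjusted p = 0.0962 to 0.148, and the block gave 3 higher and 1 lower. CSY3, the peroxisomal citrate synthase of oil breakdown, had 77.9 and 106 RPKM with ABA, against 36.0 and 46.0 RPKM in mock (1.14 ± 0.17), 1 of 2 higher members among 17. The other, MLS (0.79), lost its call without ABA replicate 2 (adjusted p = 0.2) or mock replicate 1 (adjusted p = 0.157), and the block gave 6 higher. XTH31, a xyloglucan-remodelling enzyme, had 59.7 and 39.8 RPKM with ABA, against 111 and 96.4 RPKM in mock (-1.07 ± 0.19), the call among 16 XTH genes, where the block gave 4 higher and 4 lower.

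Among 13 jasmonate genes VSP1, VSP2 and JAZ7 were higher, by 1.22, 1.29 and 0.85, and among 12 clock genes ELF4 and RVE8 were, by 1.39 and 0.81. Each of these 5 calls was lost without ABA replicate 2, at adjusted p = 0.12, 0.115, 0.508, 0.374 and 0.0639. Of 18 aquaporin genes PIP1;4 and PIP2;5 were higher (0.70 and 0.61) and PIP2;3 was lower (-0.82), and of 7 flavonoid genes CHI was higher (0.998). None of these 4 calls held without each library of 8 h. With the block 5 flavonoid genes and 5 clock genes were higher, and 2 aquaporin genes were higher and 3 lower. Over all 18310 genes the block gave 2846 higher and 1732 lower, against 1450 and 654 in the main fit. Block counts of a list stand beside those larger totals and were not tested. None of 5 trehalose-phosphate phosphatase genes and 6 root hair genes passed, and with the block 2 trehalose-phosphate phosphatase genes were higher and 1 of the root hair genes was lower.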
